A study of Mus musculus with 8 samples.

Results

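The genes described here are the integrins of mouse melanocyte stem cells, the proteins that couple integrins to the cytoskeleton, and the integrin ligand nephronectin (Npnt). They are 39 genes chosen by name, 17 alpha subunits, 8 beta subunits, 13 intracellular partners and Npnt, of 54418 genes in the deposited count table, and 36 of the 39 had enough counts to be tested. Melanocyte stem cells renew the pigment cells of the hair follicle, and RNA was sequenced from such cells sorted from dorsal skin at postnatal day 21. The Bmi1-deleted mice were Bmi1fl/fl and carried Tyrosinase-Cre, Dct-rtTA and TRE-H2B-GFP. The control mice were Bmi1fl/fl with Dct-rtTA and TRE-H2B-GFP and carried no Cre, so a Tyrosinase-driven Cre was present in the Bmi1-deleted mice alone. Both groups were on a mixed C57Bl-6;129Sv background and ate doxycycline pellets, which switch on the histone-GFP reporter through Dct, a gene of melanin synthesis. Live, non-autofluorescent, GFP-positive cells were sorted, and 4 libraries were made for each group. Bmi1 encodes a subunit of Polycomb repressive complex 1, a repressor of developmental genes, and the comparison asked what its loss did to the RNA of these cells.

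Integrins are receptors built from an alpha and a beta subunit that span the cell membrane. The alpha subunit largely sets which matrix protein is bound, while the tail of the beta subunit binds talins and kindlins, which bring in the scaffold of Ilk, parvins and Lims proteins, the kinase Ptk2, paxillin and vinculin, and through them actin. Integrin alpha 9 pairs with beta 1 and binds tenascin C, osteopontin, VCAM1 and related ligands. In the hair follicle bulge, where melanocyte stem cells lie among epithelial stem cells, the surrounding basement membrane holds laminins, collagen IV and nephronectin, a ligand of integrin alpha 8 beta 1.

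The Bmi1-deleted libraries held 9076517 to 10368174 counts and the control libraries 8882656 to 9466711. Bmi1 itself, a whole-gene count that includes any exons left in place, averaged 69.2 ± 0.875 CPM in Bmi1-deleted and 83.0 ± 9.98 CPM in control libraries (SD, n = 4; log2 change −0.26, SE 0.12, edgeR adjusted p = 0.607), where CPM are counts per 1e+06 counts of the library, scaled by TMM. In the deposited TPM, estimated per transcript length, Bmi1 was at 13.4 ± 4.84 in Bmi1-deleted and 30.4 ± 6.14 in control libraries (SD, n = 4). Melanocyte markers were present in every library, and the 10 of them summed to 5444 to 11062 CPM in Bmi1-deleted and 9550 to 15589 CPM in control libraries. The 17 fibroblast markers summed to 8478 to 18511 against 5106 to 8741 CPM, and the 8 Schwann cell markers to 4493 to 6039 against 2538 to 4532 CPM. Replicates 1 and 2 of each group had more fibroblast marker RNA and less melanocyte marker RNA than replicates 3 and 4 of the same group. In sorted bulk samples, fewer cells of a type and less RNA per cell cannot be told apart. By Xist and Y-linked counts, 1 Bmi1-deleted and 2 control libraries were female. Each group thus held RNA of more than 1 animal, but no label says that every replicate was a separate animal, so the spread behind each p-value is that between these libraries and may in part be technical.

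Among the integrins and their partners, Itga9 fell in Bmi1-deleted cells and no member rose by the test across all genes. Itga9 was the 1 member lower of 36 tested, where 0.00625% of all tested genes were lower, and 0 members were higher, where 0.0874% of all tested genes were (edgeR quasi-likelihood test, Benjamini-Hochberg adjusted p under 0.05 over 16011 genes). Itga9 was the single lower gene of the whole table, and it was known to be so when the members were chosen. At an unadjusted p under 0.05, 8 members were higher and 2 were lower, where 4.82% and 3.45% of all tested genes were. DESeq2 called 0 members higher and 2 lower (Itga9 and Npnt), where it called 0.766% of all genes higher and 0.325% lower. Limma on the deposited TPM called 0 members in either direction, and 0.0187% of all genes higher and 0.00625% lower. Libraries with the same replicate number correlated weakly across genes (0.118 to 0.166), and only replicate 4 matched best with its own number. No label says what the number marks. With that number as a block 6 members rose, Itga2, Itga6, Itga7, Itgb3, Itgb4 and Itgb8, where 1.71% of all tested genes rose. In the same fit 2 members fell, Itga9 and Npnt, where 0.706% of all tested genes fell. The log2 change was above 0 in 29 of the 36 tested members (80.6%), against 50.7% of all tested genes. Their median was 0.30, against 0.01 for all tested genes. The members share their libraries, so these shares are descriptions.

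**Figure D1:**
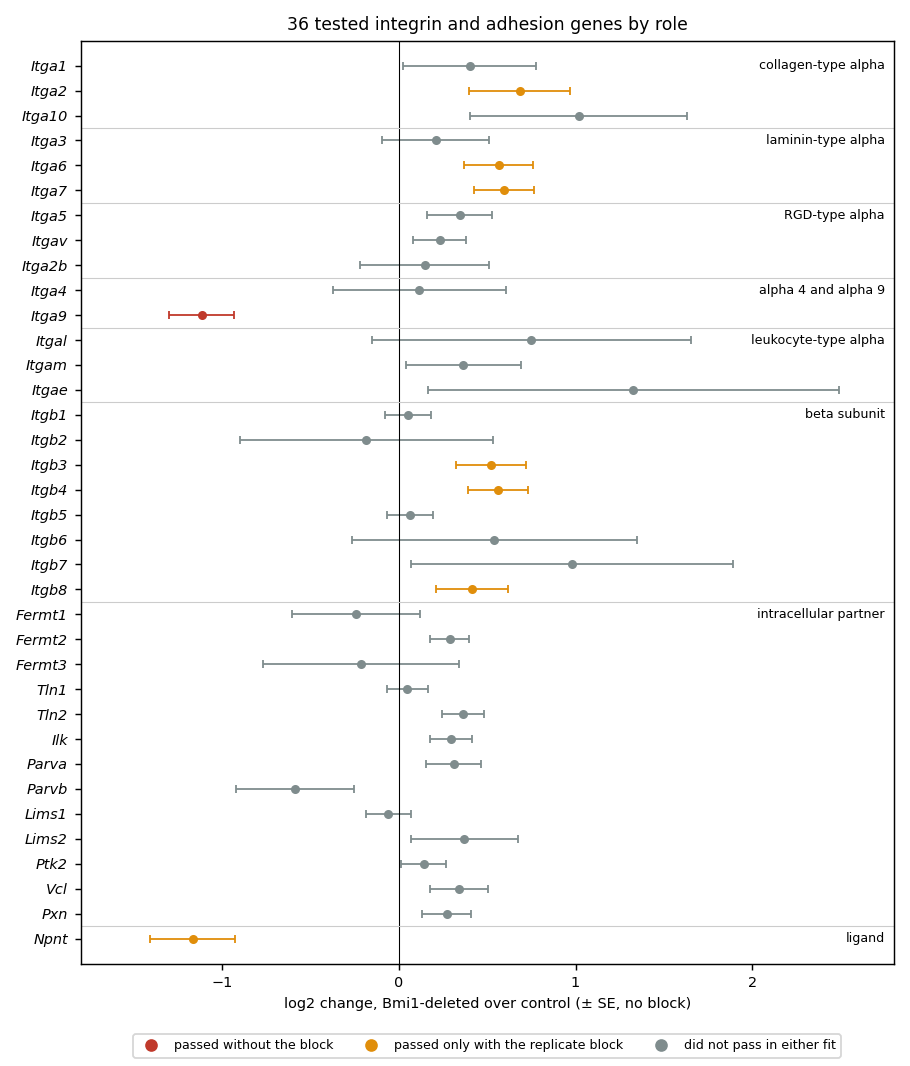
Log2 change of the 36 tested members, Bmi1-deleted over control, from the fit without a block (horizontal axis; points, with the standard error as bars), grouped by role down the page. Of 7 members left of 0, Itga9 (−1.12) and Npnt (−1.17) lie farthest from it, 29 members lie right of it, and colour shows which members passed at an adjusted p under 0.05 without the block or only with it.

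Itga9 (ENSMUSG00000039115, mm10 chr9:118606690-118901003, forward strand) had 437, 356, 318 and 462 counts in Bmi1-deleted libraries 1 to 4, against 688, 938, 769 and 1053 in control libraries 1 to 4. Scaled for depth, these were 48.0, 35.2, 35.2 and 52.1 CPM in Bmi1-deleted and 72.7, 96.1, 81.9 and 119 CPM in control libraries. The highest Bmi1-deleted library lay below the lowest control library, so the groups did not overlap. The mean was 42.6 ± 8.74 CPM in Bmi1-deleted and 92.3 ± 19.9 CPM in control libraries (SD, n = 4), or 46.2% of control (log2 change −1.12, SE 0.18, 95% interval −1.51 to −0.72, edgeR adjusted p = 0.0352). The pseudogene Gm10157 and the antisense gene Gm2415 overlap it on the opposite strand and held 0 to 24 and 11 to 40 counts per library.

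The size of the Itga9 change varied little between fits that left out a library, but its call did not hold in most of them. Without Bmi1-deleted library 1, 2 or 3 the edgeR adjusted p was 0.0718, 0.118 and 0.130, and without control library 2, 3 or 4 it was 0.153, 0.0769 and 0.101. Without Bmi1-deleted library 4 or control library 1 it was 0.0303 and 0.0254. The log2 change lay between −1.23 and −0.97 in these 8 fits. With the replicate block it was −1.11 (edgeR adjusted p = 0.000756), and the call held in 4 of 4 fits that left out a pair, the highest adjusted p being 0.0257.

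Itgb1 (ENSMUSG00000025809, chr8:128685654-128733200, forward strand), the beta subunit with which alpha 9 forms its receptor, differed between the groups by less than the spread between libraries. It had 663, 661, 596 and 507 CPM in Bmi1-deleted and 588, 685, 513 and 553 CPM in control libraries, with overlapping groups. The mean was 606 ± 73.4 CPM in Bmi1-deleted and 584 ± 73.6 CPM in control libraries (SD, n = 4; log2 change 0.05, SE 0.13, 95% interval −0.23 to 0.34, edgeR adjusted p = 0.967). Its direction was below 0 in 6 alternative fits, the lowest value being −0.20 on the deposited TPM.

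Set against Itgb1 in the same library, which removes the library scaling, Itga9 was lower in every Bmi1-deleted library than in any control library. The log2 ratio of Itga9 to Itgb1 counts was −3.79, −4.23, −4.08 and −3.28 in Bmi1-deleted and −3.02, −2.83, −2.65 and −2.22 in control libraries. The means were −3.85 ± 0.42 and −2.68 ± 0.34 (SD, n = 4), a difference of −1.17 (exact permutation test, two-sided p = 0.0286; with 70 assignments no smaller p is possible). Per transcript length, in the deposited TPM, Itga9 stood at 10.3, 7.47, 7.76 and 6.29% of Itgb1 in Bmi1-deleted and at 24.3, 20.8, 19.5 and 23.0% in control libraries. These means were 7.97 ± 1.70% and 21.9 ± 2.16% (SD, n = 4), and the log2 TPM ratio differed by −1.48 (exact two-sided permutation p = 0.0286). Counts and TPM ranked the libraries differently. Bmi1-deleted library 4 had the highest Itga9 of its group in CPM (52.1) and the lowest in TPM (2.02). The TPM thus carry length estimates that vary by library, and the larger TPM difference cannot be read as a larger fall. Itga9 was known to be lower before these tests, and the log2 change of Itgb1 was 0.05. The ratios thus restate the fall of Itga9, and their p-values are not independent of it.

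Against each of the 13 other tested alpha subunits the log2 count ratio of Itga9 was lower in Bmi1-deleted libraries on average, by −1.14 for Itga2b to −3.88 for Itgae, a gene with 0 counts in 2 control libraries. For 7 of the 13 (Itga2, Itga3, Itga5, Itga6, Itga7, Itgav and Itgam) the groups did not overlap, each with an exact two-sided permutation p of 0.0286. Adjusted over the 13 ratios these p-values came to 0.0531, so 0 passed at 0.05 on counts, while 10 passed on the deposited TPM. Since 0.0286 is the smallest exact p possible, its adjusted value depends on how many ratios reach it. The step from 0 to 10 is therefore no measure of strength. All 13 ratios hold the same Itga9 values and are not independent. Itga4, which shares ligands with alpha 9, gave a ratio of −0.80 ± 0.96 in Bmi1-deleted and 0.43 ± 0.96 in control libraries (SD, n = 4; difference −1.24, exact two-sided permutation p = 0.114), with overlapping groups.

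**Figure D2:**
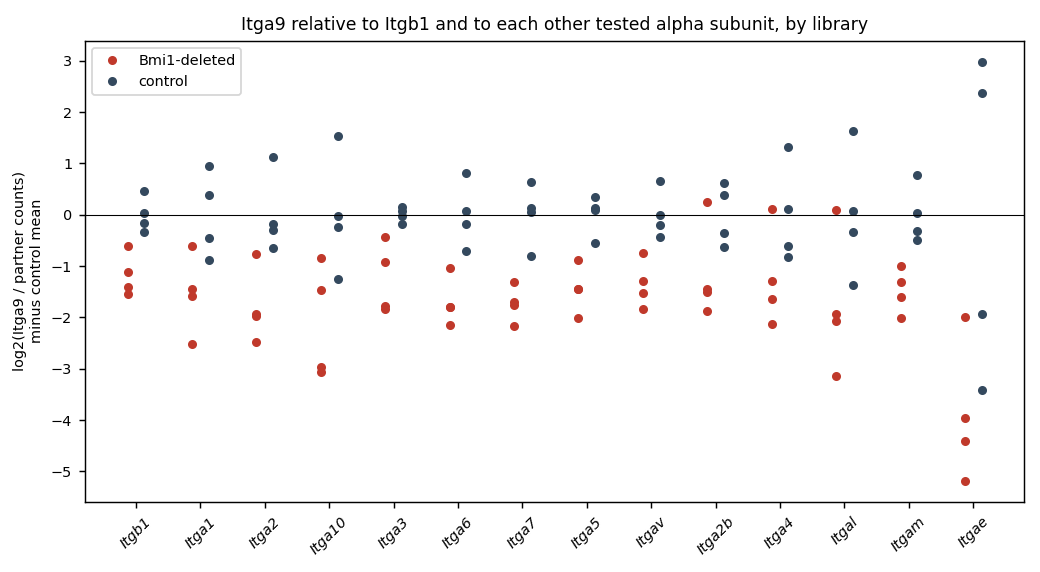
Log2 ratio of Itga9 counts to the counts of Itgb1 and of each other tested alpha subunit, 1 point per library, minus the control mean of that ratio (vertical axis; Bmi1-deleted left of control for each partner). The Bmi1-deleted points lie below all control points for Itgb1 and for 7 alpha subunits, and overlap them for the other alpha subunits.

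The composition of alpha subunit RNA can be read per length from the deposited TPM. Itga9 took 2.68, 1.95, 2.48 and 1.84% of the summed TPM of the 17 alpha subunits in Bmi1-deleted libraries and 6.49, 7.57, 7.07 and 10.2% in control libraries. The mean share was 2.24 ± 0.41% in Bmi1-deleted and 7.82 ± 1.62% in control libraries (SD, n = 4), a difference of −5.59 percentage points (exact two-sided permutation p = 0.0286). As a share of summed counts the difference was −3.75 percentage points (exact two-sided permutation p = 0.0286). These tests too were run with the fall of Itga9 known and are not independent of it. By mean share Itga9 was the seventh alpha subunit in Bmi1-deleted libraries and the third in control libraries, but neither rank was resolved beyond the spread. In Bmi1-deleted libraries Itga2b (3.75 ± 3.56%), Itga4 (2.40 ± 0.83%) and Itga5 (2.12 ± 0.41%) did not differ from it beyond the spread. In control libraries the same held for Itga7, at 7.76 ± 0.85%.

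Itga6, a laminin receptor subunit, was the most abundant alpha subunit per length in every library. It took 54.4 ± 1.55% of alpha subunit TPM in Bmi1-deleted and 46.7 ± 1.70% in control libraries (SD, n = 4), and the groups did not overlap. Itgav came second, with 17.6 ± 3.14% and 20.0 ± 1.43%, and these groups overlapped. Itga2b, known as the platelet subunit, took 0.754 to 8.83% in Bmi1-deleted and 1.19 to 4.77% in control libraries, at means of 11.5 and 10.4 CPM. Itga5 had a lower mean share, 2.12 and 2.24%, at higher means of 40.9 and 32.2 CPM. The Itga2b share thus depends on its length estimate. The RNA gene Gm23563 overlaps Itga2b on the same strand, and its counts were not examined. Of 4 platelet genes Ppbp and Gp9 had 0 counts in all 8 libraries, and Pf4 and Gp1bb had 0 counts in 4 libraries each. These 4 genes summed to 0 to 2.63 CPM in Bmi1-deleted and 0 to 0.563 CPM in control libraries. A share rises when another falls, so these shares are not independent of that of Itga9.

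**Figure D3:**
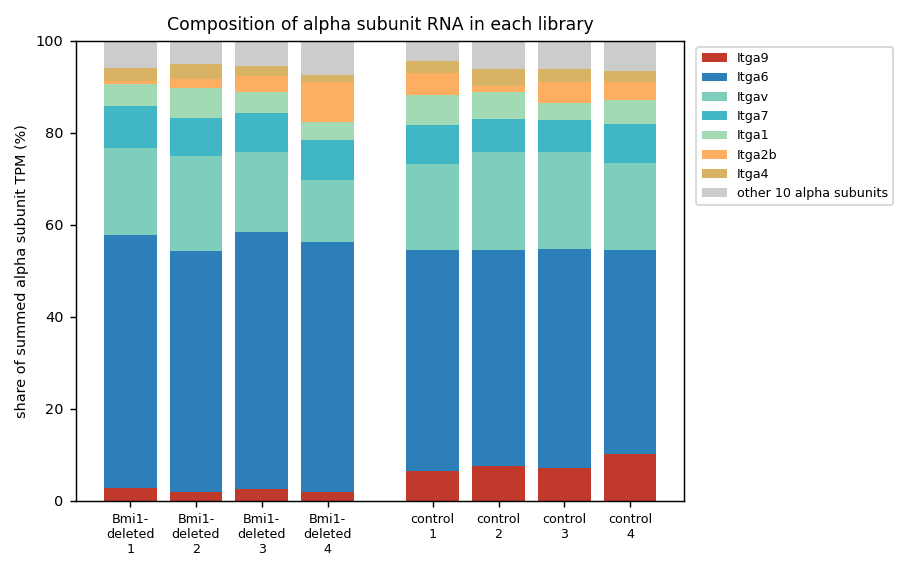
Share of each alpha subunit in the summed deposited TPM of all 17 (vertical axis, percent), 1 bar per library, Bmi1-deleted libraries left. Itga9, at the foot of each bar, takes 1.84 to 2.68% in Bmi1-deleted and 6.49 to 10.2% in control libraries, and Itga6 takes the largest share in all 8.

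Npnt (ENSMUSG00000040998, chr3:132881745-132950291, reverse strand), the only extracellular ligand among the members, was lower in Bmi1-deleted libraries as Itga9 was. It had 17.2, 19.1, 21.5 and 10.0 CPM in Bmi1-deleted and 27.6, 39.7, 38.4 and 46.7 CPM in control libraries, and every Bmi1-deleted library lay below every control library. The mean was 17.0 ± 4.92 CPM in Bmi1-deleted and 38.1 ± 7.90 CPM in control libraries (SD, n = 4). Without the block it did not pass (log2 change −1.17, SE 0.24, edgeR adjusted p = 0.0997). With the block it fell (−1.18, edgeR adjusted p = 0.0136), although without replicate pair 2 or 4 it did not pass (0.126 and 0.0675). Itga8, the alpha subunit of its receptor, was too low to be tested, at 0.113 to 5.93 CPM in Bmi1-deleted and 0 to 0.900 CPM in control libraries, where 3 counts correspond to 0.289 to 0.338 CPM.

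The 300 bases around the annotated starts of the 2 members that fell and of Itgb1, which did not pass in any fit, are shown for comparison, from RefSeq (GRCm38.p6), running from 250 bases before to 50 after the start, with every CpG in capitals. The table held promoters for 27 of the 39 members. The Itga9 entry, chr9:118711442-118711741 on the forward strand, belongs to a start 105002 bases inside the gene, not to its first exon. Those printed for Npnt (chr3:132950242-132950541, reverse strand) and Itgb1 (chr8:128685404-128685703, forward strand) lie at the start of the gene. A second Npnt entry (chr3:132949765-132950064, reverse strand), for a start 477 bases inside the gene, holds 26 CpG and is not printed.
Itga9: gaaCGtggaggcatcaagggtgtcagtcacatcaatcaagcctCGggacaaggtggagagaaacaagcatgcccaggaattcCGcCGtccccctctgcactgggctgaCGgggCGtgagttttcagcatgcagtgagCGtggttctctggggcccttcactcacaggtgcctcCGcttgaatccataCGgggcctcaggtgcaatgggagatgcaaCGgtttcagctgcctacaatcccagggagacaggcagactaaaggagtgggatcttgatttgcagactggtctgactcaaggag
Npnt: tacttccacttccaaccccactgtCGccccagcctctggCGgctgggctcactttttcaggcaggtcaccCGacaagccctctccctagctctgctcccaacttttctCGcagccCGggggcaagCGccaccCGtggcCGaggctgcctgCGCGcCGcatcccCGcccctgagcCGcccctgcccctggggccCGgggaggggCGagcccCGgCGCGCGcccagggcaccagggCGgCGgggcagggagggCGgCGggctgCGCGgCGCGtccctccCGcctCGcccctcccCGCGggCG
Itgb1: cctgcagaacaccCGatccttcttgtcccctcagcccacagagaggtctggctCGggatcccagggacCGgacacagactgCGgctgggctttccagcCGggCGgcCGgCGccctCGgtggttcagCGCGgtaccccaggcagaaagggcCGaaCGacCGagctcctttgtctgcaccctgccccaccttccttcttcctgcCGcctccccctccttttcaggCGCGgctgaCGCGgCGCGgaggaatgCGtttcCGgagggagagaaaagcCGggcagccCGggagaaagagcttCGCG
The printed Npnt window holds 32 CpG and that of Itgb1 27, against 10 in the internal Itga9 window and a median of 7 over 32817 promoters of the same length. The E-box CACGTG, on either strand, is in 7.15% of all promoters of that length and in none of the 3 windows. The E-box CATGTG is in 14.2% of all promoters and in none of the 3. A core of SOX sites, ACAAAG, is in 18.7% of all promoters, occurs 1 time in the Itgb1 window and is not in the others. No match of 1 of these motifs can be a match of another.

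The laminin receptor subunits were all higher on average in Bmi1-deleted libraries, and 2 of the 3 passed with the block. Itga6 had 1325, 1234, 971 and 857 CPM in Bmi1-deleted and 945, 863, 622 and 536 CPM in control libraries. The groups overlapped, since the control libraries 1 and 2 lay above Bmi1-deleted library 4, but each Bmi1-deleted library exceeded the control library of its own number. The mean was 1097 ± 219 CPM in Bmi1-deleted and 742 ± 194 CPM in control libraries (SD, n = 4; log2 change 0.56, SE 0.19, edgeR adjusted p = 0.437). With the block Itga6 rose (0.58, edgeR adjusted p = 0.00252), also in 4 of 4 fits that left out a pair. Itga7, a laminin receptor subunit best known from muscle, had 185, 186, 141 and 153 CPM in Bmi1-deleted and 151, 110, 88.7 and 91.1 CPM in control libraries. Control library 1 alone reached the Bmi1-deleted range. Itga7 rose with the block (0.62, edgeR adjusted p = 0.00603) and not without it (0.59, SE 0.17, edgeR adjusted p = 0.304), and it did not pass without replicate pair 2 (0.0838). Itga3, which also binds laminin, averaged 18.0 ± 7.97 CPM in Bmi1-deleted and 15.6 ± 3.24 CPM in control libraries (log2 change 0.21, edgeR adjusted p = 0.928).

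Itgb4, which joins alpha 6 in the hemidesmosomes of basal keratinocytes, showed the pattern of Itga6. It had 418, 465, 347 and 314 CPM in Bmi1-deleted and 331, 273, 246 and 196 CPM in control libraries, where control library 1 alone reached the Bmi1-deleted range. The log2 change was 0.56 (SE 0.17, edgeR adjusted p = 0.340) without the block and 0.57 (edgeR adjusted p = 0.00530) with it, and the gene did not pass without pair 2 (0.0747). The basal keratinocyte markers summed to 1460 to 2804 CPM in Bmi1-deleted and 1949 to 2373 CPM in control libraries. Of these 8 markers 0 passed with or without the block, by DESeq2 or by limma. At an unadjusted p under 0.05, 0 were higher and 1 was lower, where 4.82% and 3.45% of all tested genes were.

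Itgb3 and Itgb8, which pair with alpha v, also rose with the block alone. Itgb3 had 206, 220, 157 and 144 CPM in Bmi1-deleted and 162, 145, 113 and 86.0 CPM in control libraries, with overlapping groups (log2 change with the block 0.54, edgeR adjusted p = 0.0103; without it 0.52, adjusted p = 0.511). Itgb8, whose receptor with alpha v activates latent TGF-beta, had 564, 498, 402 and 323 CPM in Bmi1-deleted and 430, 371, 306 and 235 CPM in control libraries, again overlapping (0.42, edgeR adjusted p = 0.0202; without the block 0.41, adjusted p = 0.639). In fits that left out a pair, Itgb3 passed in 2 of 4 and Itgb8 in 0 of 4, with highest adjusted p of 0.100 and 0.127. Their partner Itgav averaged 492 ± 76.2 CPM in Bmi1-deleted and 419 ± 72.7 CPM in control libraries and did not pass in either fit (0.23, edgeR adjusted p = 0.772, and 0.270 with the block). Itgb5, another partner of alpha v, averaged 57.9 ± 4.37 and 55.4 ± 5.14 CPM (0.06, edgeR adjusted p = 0.959). Itgb6, an epithelial partner of alpha v, averaged 3.00 ± 2.21 CPM in Bmi1-deleted and 2.06 ± 1.90 CPM in control libraries.

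**Figure D4:**
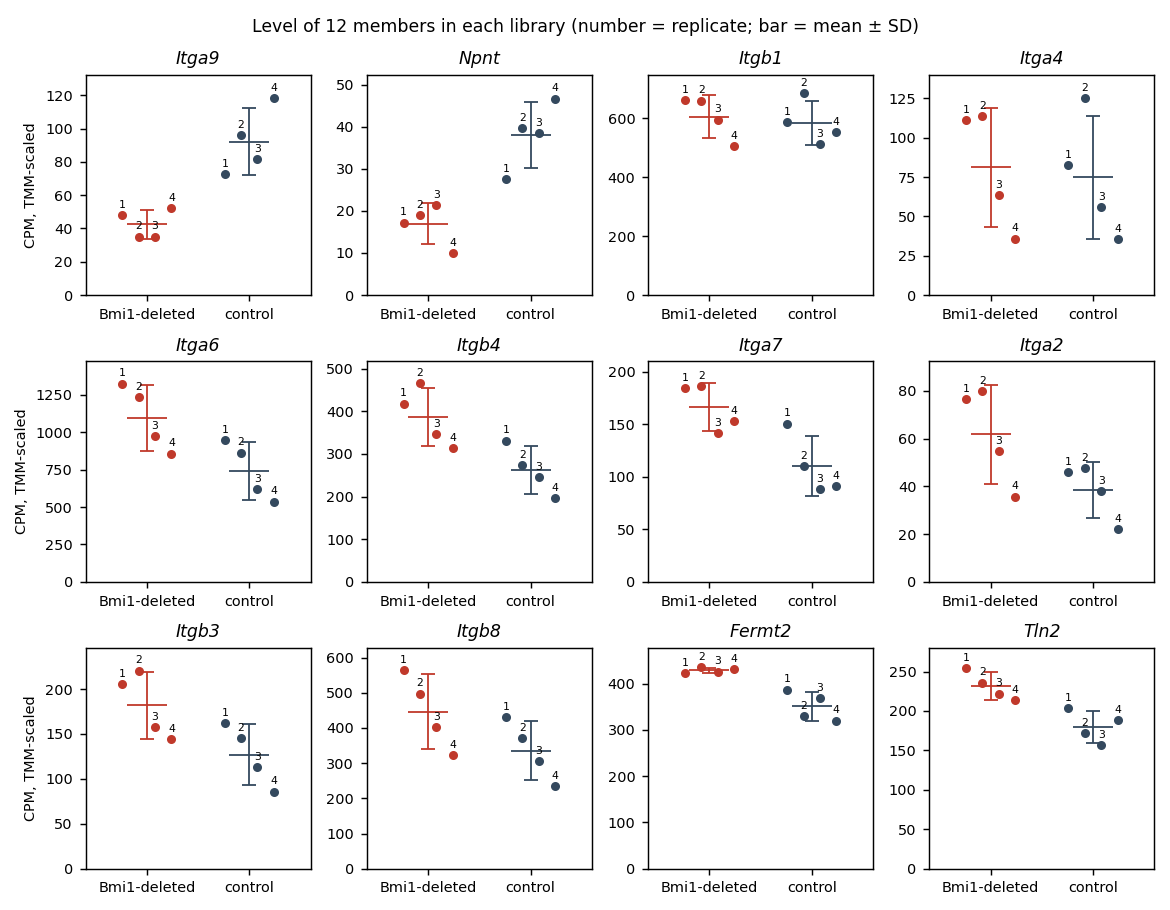
CPM scaled by TMM in each library (vertical axes from 0) for 12 members, Bmi1-deleted left and control right, with the replicate number over each point and the mean ± SD as lines. For Itga9 and Npnt the Bmi1-deleted points lie below all control points, for Fermt2 and Tln2 above them, and for Itga6, Itgb4, Itga7, Itga2, Itgb3 and Itgb8 each Bmi1-deleted point lies above the control point of its own number.

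Of the collagen receptor subunits, Itga2 passed with the block. It had 76.7, 80.1, 54.6 and 35.8 CPM in Bmi1-deleted and 46.1, 47.7, 37.9 and 22.2 CPM in control libraries, higher in 4 of 4 pairs but overlapping between groups (log2 change with the block 0.67, edgeR adjusted p = 0.0136; without it 0.68, adjusted p = 0.575). It passed in 1 of 4 fits that left out a pair, without replicate 3 (0.0435). Itga1 averaged 216 ± 87.5 CPM in Bmi1-deleted and 164 ± 69.2 CPM in control libraries (0.40, edgeR adjusted p = 0.876) and Itga10 6.77 ± 4.78 and 3.34 ± 2.07 CPM (1.02, adjusted p = 0.741). Itga11 had at most 2.41 CPM in any library and was not tested.

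The remaining integrins did not pass in either fit. Itga5, the fibronectin receptor subunit, averaged 40.9 ± 8.44 CPM in Bmi1-deleted and 32.2 ± 4.65 CPM in control libraries (log2 change 0.35, edgeR adjusted p = 0.677). Itga4 varied widely, at 111, 114, 63.4 and 35.9 CPM in Bmi1-deleted and 82.7, 125, 55.8 and 35.3 CPM in control libraries (0.12, SE 0.49, edgeR adjusted p = 0.982), and in both groups replicates 1 and 2 were higher than 3 and 4. The subunits of leukocyte integrins were low. Itgal, Itgae, Itgb2 and Itgb7 averaged 1.07 to 2.96 CPM in either group, Itgam 10.4 ± 3.01 CPM in Bmi1-deleted and 8.07 ± 2.46 CPM in control libraries, and Itgax, not tested, at most 1.19 CPM. The 10 leukocyte markers summed to 74.9 to 112 CPM in Bmi1-deleted and 42.7 to 86.3 CPM in control libraries.

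None of the 13 intracellular partners passed in either edgeR fit, in DESeq2 or in limma. At an unadjusted p under 0.05, 3 were higher and 0 lower, where 4.82% and 3.45% of all tested genes were. The median log2 change of the partners was 0.27 and 9 of 13 were above 0. For 3 of them the groups did not overlap, each higher in Bmi1-deleted libraries, where 2.79% of all tested genes were separated in that direction. Itga9 and Npnt were the 2 members separated in the other direction, as were 2.39% of all tested genes. Fermt2, the broadly expressed kindlin, had 422, 435, 426 and 431 CPM in Bmi1-deleted and 387, 329, 368 and 320 CPM in control libraries (log2 change 0.29, SE 0.11, edgeR adjusted p = 0.495). Tln2, a talin, had 254, 236, 222 and 214 CPM in Bmi1-deleted and 203, 172, 157 and 188 CPM in control libraries (0.36, SE 0.12, edgeR adjusted p = 0.396). Ilk had 117, 97.0, 93.8 and 104 CPM in Bmi1-deleted and 82.2, 92.4, 81.7 and 78.8 CPM in control libraries (0.30, SE 0.12, edgeR adjusted p = 0.532), and its log2 change was −0.04 on the deposited TPM.

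Tln1, the main talin of most cells, averaged 560 ± 38.5 CPM in Bmi1-deleted and 541 ± 56.7 CPM in control libraries (log2 change 0.05, edgeR adjusted p = 0.965). Vinculin (Vcl) averaged 597 ± 89.3 and 471 ± 99.9 CPM (0.34, adjusted p = 0.612), paxillin (Pxn) 218 ± 24.6 and 180 ± 31.0 CPM (0.27, adjusted p = 0.649) and the focal adhesion kinase Ptk2 234 ± 28.2 and 212 ± 24.2 CPM (0.14, adjusted p = 0.867), by the same test. The scaffold genes Parva, Lims1 and Lims2 had log2 changes of 0.31, −0.06 and 0.37. Parvb had the lowest value of the partners, −0.59 (edgeR adjusted p = 0.718), with 8.61 ± 1.16 CPM in Bmi1-deleted and 12.95 ± 6.49 CPM in control libraries, where control library 4 reached 22.4. Fermt1, the kindlin of keratinocytes, and Fermt3, that of blood cells, averaged 8.68 ± 2.73 and 3.91 ± 2.15 CPM in Bmi1-deleted and 10.3 ± 3.73 and 4.53 ± 2.37 CPM in control libraries.

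The matrix that these receptors bind was examined in other gene lists. Of 14 alpha 9 ligands and related genes, tenascin C (Tnc) alone passed with the block, with 197 ± 28.7 CPM in Bmi1-deleted and 107 ± 22.3 CPM in control libraries (SD, n = 4; log2 change 0.90, edgeR adjusted p = 0.00247; 0.89 and 0.0541 without the block). Its change was opposite in sign to that of Itga9. Fibronectin (Fn1) averaged 138 ± 79.2 and 135 ± 21.97 CPM, and osteopontin (Spp1) 2.63 ± 1.15 and 2.17 ± 1.45 CPM. Of 20 basement membrane genes 0 passed without the block (10 higher and 1 lower at an unadjusted p under 0.05; 6 higher by DESeq2, 0 by limma) and 9 rose with it, among them the laminin chains Lamc1, Lamb1, Lama2 and Lama4 and the collagen IV chains Col4a1 and Col4a2. Of all tested genes, 4.82% were higher and 3.45% lower at that unadjusted p, DESeq2 called 0.766% higher, and 1.71% rose with the block. The median of the basement membrane list was 0.43. Its summed level was 13780 to 15838 CPM in Bmi1-deleted and 8852 to 12652 CPM in control libraries, without overlap.

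Of 44 tested genes of focal adhesion signalling and actin linkage 0 passed without the block (5 higher and 0 lower at an unadjusted p under 0.05; 1 higher by DESeq2, 0 by limma). With it Tns1 and Tgfb1i1, adaptors of focal adhesions, rose (log2 change 0.72 and 0.70, edgeR adjusted p = 0.00401 and 0.0345), and the median of the list without the block was 0.02. Of 13 genes of integrin traffic and tetraspanins 0 passed in either edgeR fit, in DESeq2 or in limma (2 higher and 1 lower at an unadjusted p under 0.05), with a median of −0.01. For both lists, the shares of all tested genes were 4.82% higher and 3.45% lower at that unadjusted p. With the block 1.71% of all tested genes rose, and DESeq2 called 0.766% higher.

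Fibroblast and Schwann cell markers rose under the block, as 6 members did, while markers of 4 other cell types did not pass. With the block 8 of 16 tested fibroblast markers and 7 of 8 Schwann markers rose, where 1.71% of all tested genes did. The 8 fibroblast markers were all matrix genes, Col1a1, Col1a2, Col3a1, Col5a1, Col6a1, Col6a2, Fbn1 and Postn. Dcn, Lum, Dpt, Pdgfra, Pdgfrb, Thy1 and Loxl1, at control means of 0.417 to 8.69 CPM, were above 0 but did not pass with the block. Fbln1 was at −0.70 with the block (edgeR adjusted p = 0.107). In that fit 8 of 10 melanocyte markers fell, where 0.706% of all tested genes did. The median log2 change without the block was 0.96, 0.59 and −0.66, and 0 markers of the 3 lists passed in edgeR without block and covariate. At an unadjusted p under 0.05, 9 fibroblast markers were higher and 1 lower, 6 Schwann markers higher, and 7 melanocyte markers lower. Of all tested genes 4.82% were higher and 3.45% lower. DESeq2, without the block, called 4 fibroblast and 3 Schwann markers higher and 3 melanocyte markers lower. It called 0.766% of all genes higher and 0.325% lower. Limma called 0 of these markers. Of the tested basal keratinocyte, leukocyte, endothelial and mural markers 0 passed with the block. None of the fibroblast, Schwann and melanocyte lists had a marker at 0 in all libraries. With the mean log2 CPM of the fibroblast markers as a covariate, no member passed (0.237% of all tested genes were higher and 0.0812% lower), and the log2 change was 0.17 for Itga6 and 0.25 for Itgb4 (edgeR adjusted p = 0.688 and 0.537). With the Schwann marker mean in its place, these were −0.06 and 0.00 (edgeR adjusted p = 0.953 and 0.999), and again no member passed, where 0.00625% of all tested genes were higher and 0% lower. Without the block, no basement membrane gene passed with no covariate or under either covariate. Itga6 and Itgb4 had not passed without block and covariate either (edgeR adjusted p = 0.437 and 0.340). The covariates thus removed no call of these genes, and only their log2 changes can be compared. With the block and the fibroblast mean together, Itga6 was at 0.74 and Itgb4 at 0.77 (edgeR adjusted p = 0.195 and 0.221), and Npnt was the single member that passed (−2.61, edgeR adjusted p = 0.0380), where 0.106% of all tested genes were lower. In that fit the basement membrane gene Fras1 was at −2.27 and Tns1 at 1.34 (edgeR adjusted p = 0.0380 and 0.0483). A block and a score together leave few degrees of freedom in 8 libraries, and the score itself differs by group and replicate number. Estimates from such fits are unsteady: Npnt was at −1.18 with the block alone and −0.01 with the block and the Schwann mean.

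Itga9 kept its sign but not its call when these covariates were added. Its log2 change was −0.98 with the fibroblast mean (edgeR adjusted p = 0.0684), −0.62 with the Schwann mean (0.496) and −1.14 with sex (0.0538). With the block it was −1.37 with the fibroblast mean (0.158) and −0.37 with the Schwann mean (0.957), in fits with few degrees of freedom. Npnt gave −1.28 with the fibroblast mean, −0.98 with the Schwann mean and −0.01 with the block and the Schwann mean (edgeR adjusted p = 0.102, 0.565 and 0.999).

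**Figure D5:**
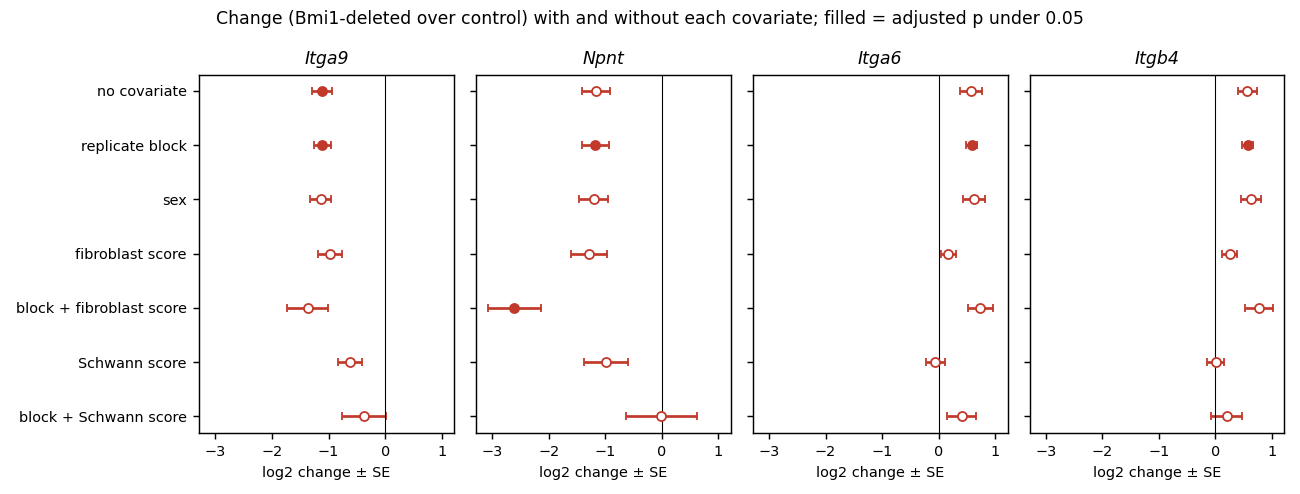
Log2 change, Bmi1-deleted over control, with its standard error (horizontal axis) for Itga9, Npnt, Itga6 and Itgb4 under each covariate (rows). Filled points passed at an adjusted p under 0.05. Itga9 ranges between −1.37 and −0.37, and Itga6 between −0.06 and 0.74.

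Against melanocyte marker RNA the groups overlapped for Itga9, Npnt, Itgb1, Itga6 and Itgb4. Per 1000 counts of the 10 melanocyte markers, Itga9 had 8.24, 6.46, 3.75 and 4.71 counts in Bmi1-deleted and 7.62, 9.03, 6.11 and 7.602 in control libraries. The log2 ratio differed by −0.44 (exact two-sided permutation p = 0.2), lower in 3 of 4 same-numbered pairs. For Npnt these were 2.96, 3.50, 2.29 and 0.907 in Bmi1-deleted and 2.89, 3.73, 2.87 and 3.00 in control libraries (−0.53, exact two-sided permutation p = 0.257). Itgb1 had 114, 121, 63.5 and 45.8 counts in Bmi1-deleted and 61.6, 64.4, 38.3 and 35.4 in control libraries on this scale. Its log2 ratio differed by 0.73 (exact two-sided permutation p = 0.143), higher in 4 of 4 same-numbered pairs. Itga6 differed by 1.25 and Itgb4 by 1.24 (exact two-sided permutation p = 0.114 and 0.0571), each also higher in 4 of 4 pairs. The melanocyte markers themselves ranged from −1.002 for Mlana to 0.16 for Sox10 in log2 change, with Pax3 at −0.30. Dct and Tyrp1 were the most abundant of them and weigh most in their sum. They averaged 3203 and 1349 CPM in Bmi1-deleted and 4971 and 2306 CPM in control libraries (log2 change −0.63 and −0.77). The ratios thus depend on which markers dominate the sum, and ratios to single markers were not tested.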

How the data were processed

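The authors deposited estimated counts per gene as whole numbers without normalisation, which Salmon 1.2.1 on mm10 gave, per the submitters' processing notes, and a second table that the authors deposited as log2 of TPM plus 1. The sources used here give neither strand setting nor annotation version, so reads of a gene and its antisense partner may not be told apart. Per the labels' protocols, RNA of more than 10000 sorted cells (1 ng per library) was amplified by 15 and 15 cycles of PCR in a stranded kit. No molecular identifiers are mentioned, so counts include PCR copies and floors cover counting error only. No library was treated as a copy of another, since chi-square per degree of freedom was 12.1 to 37.9 between libraries of a group.

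Gene symbols and mm10 positions came from GENCODE M21, where 54096 of 54418 identifiers had a symbol, and promoter sequences from RefSeq. The edgeR package (4.0.16, in R 4.3.3) supplied the count filter filterByExpr, which kept 16011 genes, TMM scaling and the main test, a robust two-sided quasi-likelihood F test, with p-values adjusted over all tested genes (Benjamini-Hochberg, 0.05). The script was tested on simulated counts. Standard errors of log2 changes were taken from the F statistic, and CPM are scaled to 1e+06 effective counts. For single ratios and shares the test was an exact permutation of the 70 assignments of libraries to groups, two-sided. The ratio to Itgae had 0.5 counts added. TPM were used where levels of genes were compared, although the predicted gene Gm23935 held 73.7% to 85.6% of them.

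Replicate numbers came from the sample titles. After centring within genotype, same-numbered libraries correlated across genes at 0.118, 0.166, 0.128 and 0.156, all above 0.1, and were therefore treated as pairs in the fit with a block. The labels name no litter, day or batch, and the fit without the block stayed the main one. DESeq2 1.42.0, limma 3.58.1 on log2(TPM + 1), other filters and scalings, covariates and left-out libraries were alternatives. The Schwann covariate, the block with either marker score and the ratios to melanocyte markers were added after seeing the data. The members and all lists were chosen with earlier results of these data known. Values in every library are given for Itga9, Itgb1, Npnt, Itga4 and each member that passed in either fit or whose groups did not overlap, and the others by mean or range.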

Additional observations from a re-analysis of the deposited data

Results flagged for a closer look

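In 2 of 114 groups of 4 libraries checked, the library farthest from the others stood apart by more than Dixon's 95% critical value of 0.829, where chance alone gives about 5%. Itgb2, the beta subunit of leukocyte integrins, had 5.40 CPM in control library 4 and 1.33 to 1.92 CPM in the other control libraries. Itgal, which pairs with Itgb2, took 1.12% of alpha subunit TPM in Bmi1-deleted library 4 and 0.0119 to 0.150% in the other Bmi1-deleted libraries.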

How the results depend on the processing

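The lower call of Itga9 depended on the fit. With RLE scaling, with a filter of 10 CPM, with DESeq2 and with no filter it passed. Without the block, leaving out a library gave 0 to 1 members lower, where 0 to 0.0298% of all tested genes were. The Itga9 log2 change was then −1.23 to −0.97. On limma of the deposited TPM (−1.43, adjusted p = 0.352), with sex (−1.14), with the fibroblast mean (−0.98), with the block and the fibroblast mean (−1.37), with the Schwann mean (−0.62), with the block and the Schwann mean (−0.37) and relative to melanocyte markers (−0.44) it did not pass, and the cause was not tested. The count of members lower was 2 with DESeq2, with no filter and with the replicate block, and 0 with limma on TPM, sex, the fibroblast mean, the Schwann mean, and the block with the Schwann mean. Of all tested genes, 0.325% were lower with DESeq2, 0.346% with no filter and 0.706% with the replicate block. Members higher numbered 5 with no filter and 6 with the replicate block, where 0.741% and 1.71% of all tested genes were. With the block and a pair left out, 1 to 6 members were higher, where 0.55 to 1.62% of all tested genes were. In these fits 1 to 2 members were lower, where 0.148 to 0.534% of all tested genes were. The block added the calls of 6 members higher and of Npnt and changed no other call. Only replicate 4 of the 4 numbers matched best with its own number.

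Over all genes, the 15 calls became 386 with the block, 161 with DESeq2, 380 with no filter, 4 with limma on TPM, 51 with the fibroblast mean, 50 with the block and the fibroblast mean, 1 with the Schwann mean and 31 with the block and the Schwann mean. Leaving out a library gave 8 to 45, and the block without a pair 113 to 351. Limma on TPM moved the median of all genes to −0.14. The Itga9 ratio to other alpha subunits passed for 10 on TPM against 0 on counts, a step that depends on how many ratios reach the smallest exact p. The ratio to Itgb1 and the share of alpha subunit TPM kept direction in every alternative run, but without any 1 library the smallest exact p is 0.0571, so no test can pass.

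Signs turned as follows. Itgb1 was −0.20 on TPM, −0.16 with the fibroblast mean, −0.19 with the block and the fibroblast mean, −0.17 with the Schwann mean, −0.0051 with the block without replicate 3, and −0.0054 (without control library 3) to 0.14 when a library was left out. Itga4 was −0.13 on TPM, −0.86 with the fibroblast mean, −0.10 with the block and the fibroblast mean, −1.26 with the Schwann mean, and −0.12 to 0.49 when a library was left out, below 0 without Bmi1-deleted library 1 (−0.073) or 2 (−0.095) or control library 3 (−0.00014) or 4 (−0.12). With the Schwann mean Itga2 was −0.28, Itga6 −0.060, Itgb3 −0.16 and Itgb8 −0.25. Itgb8 was −0.025 with the fibroblast mean, Fermt2 −0.0027 with the block and the Schwann mean, and Ilk −0.037 on TPM. Of 521 values of the other 23 tested members, 66 changed sign, in 21 members, and 2 passed (Itga1 and Vcl, with the block without replicate 1). At 8882656 to 10368174 counts per library, members of a few CPM, such as the leukocyte subunits other than Itgam, rest on few counts.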
